A study of Mus musculus with 6 samples.

Results

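Carboxylesterases are serine hydrolases of the endoplasmic reticulum that split ester and amide bonds. The liver is rich in them. Some members hydrolyze stored triglycerides and supply fatty acids to nascent VLDL particles, some cleave cholesteryl esters or diacylglycerols, and many activate or inactivate ester drugs. The mouse genome holds several tandem copies of most of these genes. The 10 members described here (*Ces1b*, *Ces1c*, *Ces1d*, *Ces1e*, *Ces1f*, *Ces1g*, *Ces2a*, *Ces2c*, *Ces3a* and *Ces3b*) were chosen by gene symbol. They are 10 of the 20 carboxylesterase genes in a table of read counts on 52459 genes, and all 10 passed the filter on low counts that left 17032 genes for testing.

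Whole livers of 6 male C57BL6J mice of the Alb-Cre/Cas9 F1 generation, aged 8 months, were sequenced. In these mice the albumin promoter drives Cre, so that Cas9 is made in hepatocytes, and an AAV8 vector with a U6-driven guide RNA was injected intravenously at 4 to 5 weeks of age. The vector carried a control guide in 3 mice (sgCtrl, livers 5.1, 7.1 and 7.2) and a guide against *Prdx2*, which encodes the peroxide-reducing enzyme peroxiredoxin 2, in the other 3 (sgPrdx2, livers 1.1, 1.3 and 3.2). All mice were given the carcinogen diethylnitrosamine (DEN) at 100 mg/kg, 3 weeks after the vector and, from 1 week after DEN, a choline-deficient high-fat diet (CDA-HFD) for 6 months, so that no untreated liver is part of the comparison. Each library is 1 mouse. By immunohistochemistry the study reports suppressed PRDX2 protein in hepatocytes of this mouse model, and it mentions islets of PRDX2-positive cells that the vector probably missed.

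Total counts per liver ranged from 37462102 to 56865293. Levels are given as CPM, counts scaled to a common library size after TMM normalization (counts per 1000000), which aligns the livers on the bulk of genes, and 3 counts correspond to 0.0555 to 0.0921 CPM depending on the liver. *Prdx2* RNA itself was at 109, 117 and 132 CPM in sgCtrl livers 5.1, 7.1 and 7.2, against 99.0, 112 and 149 CPM in sgPrdx2 livers 1.1, 1.3 and 3.2, with a log2 fold change of 0.01 ± 0.18 (SE), so that its RNA level does not separate the groups. Hepatocyte markers differed between the groups. All 29 markers used had a positive log2 fold change (median 0.83, 12 called higher), no marker was under 1 CPM in all livers, and their summed level was 113900 to 125800 CPM in sgCtrl livers and 194800 to 263200 CPM in sgPrdx2 livers. The called markers with the smallest p were *Apoh* (log2 fold change 0.97), *Uox* (0.99), *Ttr* (1.36), *Serpina1a* (1.25) and *Cyp2e1* (0.96), genes of plasma proteins and of urate and drug oxidation. In whole liver, a change in the share of hepatocytes and a change in RNA per hepatocyte cannot be told apart.

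The members lie on mouse chromosome 8 (GRCm38) in 2 tandem clusters. The Ces1 members occupy chr8:93056728-93337308 on the minus strand, and the Ces2 and Ces3 members chr8:104734003-105093929 on the plus strand. The promoter windows below, from RefSeq on GRCm38.p6, run from 250 bases before to 50 bases after a gene's start and show how similar some copies are and how different others. RefSeq windows were matched for 7 of the 10 members. The Ces1b and Ces1c windows were identical at 253 of 270 aligned bases (93.7%), whereas those of *Ces2a* and *Ces2c* were identical at 188 of 264 (71.2%). Whether likeness of promoters goes with likeness of fold changes was not tested. They are shown 5′ to 3′ on the strand of the gene, at chr8:93079891-93080190 (minus) for *Ces1b*, chr8:93131234-93131533 (minus) for *Ces1c*, chr8:104733753-104734052 (plus) for *Ces2a*, chr8:104846818-104847117 (plus) for *Ces2c* and chr8:105083505-105083804 (plus) for *Ces3b*. Capitals mark matches to the motifs named in the next paragraph.
Ces1b: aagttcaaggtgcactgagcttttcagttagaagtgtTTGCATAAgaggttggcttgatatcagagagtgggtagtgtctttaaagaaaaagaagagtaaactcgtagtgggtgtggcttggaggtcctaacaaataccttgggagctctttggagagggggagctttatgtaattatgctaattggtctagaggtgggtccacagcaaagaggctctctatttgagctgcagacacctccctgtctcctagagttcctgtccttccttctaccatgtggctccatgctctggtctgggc
Ces1c: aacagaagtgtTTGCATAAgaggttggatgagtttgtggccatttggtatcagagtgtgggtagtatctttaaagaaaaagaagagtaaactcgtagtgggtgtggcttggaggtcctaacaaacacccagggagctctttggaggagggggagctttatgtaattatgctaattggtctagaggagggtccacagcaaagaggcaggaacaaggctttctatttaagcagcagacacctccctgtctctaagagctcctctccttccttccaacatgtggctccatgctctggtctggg
Ces2a: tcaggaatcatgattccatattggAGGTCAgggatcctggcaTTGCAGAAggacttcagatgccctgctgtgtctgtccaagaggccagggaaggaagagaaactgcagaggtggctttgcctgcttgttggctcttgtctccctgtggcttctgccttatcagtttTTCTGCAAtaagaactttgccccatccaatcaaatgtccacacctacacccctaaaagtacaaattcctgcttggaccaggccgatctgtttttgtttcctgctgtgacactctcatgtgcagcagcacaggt
Ces2c: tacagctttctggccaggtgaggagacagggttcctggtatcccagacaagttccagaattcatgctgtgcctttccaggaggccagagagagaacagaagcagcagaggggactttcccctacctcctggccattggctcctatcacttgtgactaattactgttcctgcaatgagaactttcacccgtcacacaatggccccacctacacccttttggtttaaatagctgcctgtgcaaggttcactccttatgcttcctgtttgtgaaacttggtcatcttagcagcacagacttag
Ces3b: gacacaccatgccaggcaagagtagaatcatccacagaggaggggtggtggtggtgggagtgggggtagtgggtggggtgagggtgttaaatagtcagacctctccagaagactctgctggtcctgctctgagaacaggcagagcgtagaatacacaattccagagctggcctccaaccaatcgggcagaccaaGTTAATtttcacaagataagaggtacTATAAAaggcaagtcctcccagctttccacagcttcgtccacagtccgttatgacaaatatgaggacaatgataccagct

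The windows were searched on both strands for 7 short motifs, spelled out with N for any base. The C/EBP-type motif TTGCNNAA, which 10.8% of 32851 RefSeq promoters hold, was in the windows of 3 of the 7 matched members, *Ces1b* (whose 2 overlapping RefSeq windows hold the same match), *Ces1c* and *Ces2a*, where it occurs at -208 and again at -83 from the start. The nuclear receptor motif AGGTCA (16.3% of promoters) was present at -226 in *Ces2a* alone among the member windows. The TATA box letters TATAAA (13.6%) were found at -30 on the gene's strand in *Ces3b* and at -26 on the opposite strand in *Ces1g*. The HNF1 motif GTTAAT (7.1%) was at -56 in *Ces3b*. Windows of *Ces2c* and *Ces1e* held none of the 7 motifs. The HNF4 motif CAAAGTCCA (0.475%), the NRF2 core TGACNNNGC (12.4%) and the E-box CACGTG (7.15%) were in no member window. These matches describe letters in the windows and not bound sites, and none of the motifs overlapped another in a printed window.

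Carboxylesterase RNA was more abundant in the sgPrdx2 livers, and the members differed widely in how much. *Ces2a* rose 4.25-fold and was the only member called by edgeR at an adjusted p under 0.05, while 9 of the 10 had a positive log2 fold change and *Ces2c* a negative one. In 6 members (*Ces1b*, *Ces1c*, *Ces1e*, *Ces2a*, *Ces3a* and *Ces3b*) every sgPrdx2 liver was above every sgCtrl liver. The median log2 fold change of the members was 0.74, beside -0.02 for all 17032 genes and 0.83 for the hepatocyte markers.

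The 1 call among 10 members compares with 305 genes called higher (1.79%) and 262 called lower (1.54%) of all genes tested, and the 6 members without overlap compare with 16.7% of all genes above and 17.5% below. No member was called lower by edgeR or by DESeq2, and none had a negative change at an unadjusted p under 0.05. Positive changes at an unadjusted p under 0.05 were seen for 6 members, beside 13.0% of all genes higher and 11.9% lower at that level. These are the same 6 that DESeq2 called higher, a tool that called 7.58% of its genes higher and 5.78% lower. Among the 29 hepatocyte markers, 24 were higher in every sgPrdx2 liver than in every sgCtrl liver. At an unadjusted p under 0.05, 24 of these markers were higher, while edgeR called 12 higher and DESeq2 called 23 higher. The 10 members together took 0.430%, 0.412% and 0.308% of all counts in sgCtrl livers 5.1, 7.1 and 7.2, and 0.548%, 0.465% and 0.561% in sgPrdx2 livers 1.1, 1.3 and 3.2. In normalized CPM their sum went from 3366 ± 541 (SD, n = 3) to 6015 ± 1053 (SD, n = 3), a ratio of 1.79. With library totals and no composition factor the ratio was 1.37.

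**Figure D1:**
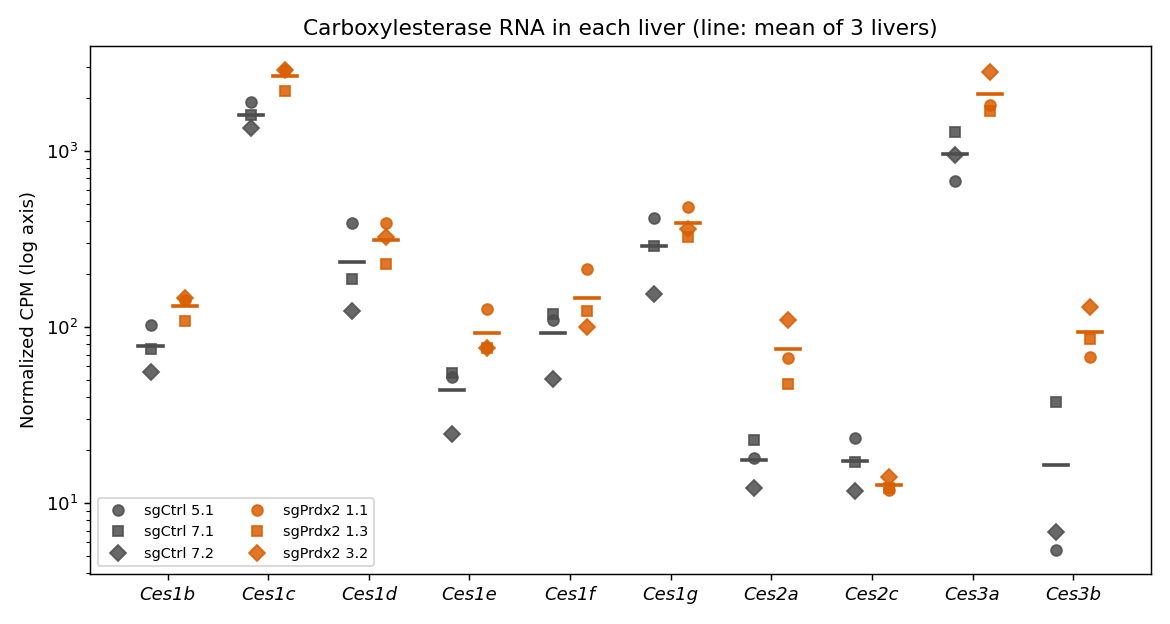
Normalized CPM (log axis) of the 10 carboxylesterase members in each of the 3 sgCtrl livers (gray) and 3 sgPrdx2 livers (orange), with 1 symbol per liver and a line at the group mean. The sgPrdx2 points of Ces2a, Ces3a, Ces3b, Ces1b, Ces1c and Ces1e lie above all sgCtrl points, and Ces2c is the 1 member with a lower mean in sgPrdx2 livers.

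*Ces1c* encodes the plasma carboxylesterase of rodents, which hepatocytes secrete, and was the most abundant member per length in both groups. It was at 1889, 1594 and 1350 CPM in sgCtrl livers 5.1, 7.1 and 7.2 and at 2878, 2193 and 2888 CPM in sgPrdx2 livers 1.1, 1.3 and 3.2. All sgPrdx2 livers were higher, by 0.72 ± 0.19 (SE) on the log2 scale, with an adjusted p of 0.0786 by edgeR that misses the threshold. *Ces1b*, its neighbor in the cluster, was at 103, 75.5 and 55.3 CPM in sgCtrl livers and at 142, 108 and 147 CPM in sgPrdx2 livers (log2 fold change 0.76 ± 0.24, adjusted p = 0.109). *Ces1b* counts amounted to 4.10 to 5.46 per 100 *Ces1c* counts in sgCtrl livers and 4.92 to 5.095 in sgPrdx2 livers. The ratio did not separate the groups (exact two-sided permutation p = 0.7). Of the 50-base stretches of *Ces1b* exons, 9.92% also occur in *Ces1c*. Reads from such stretches could be counted on the other gene or left out of both, which was not tested.

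The other Ces1 members include enzymes with known roles in lipid turnover. *Ces1d* encodes triacylglycerol hydrolase, which mobilizes stored triglyceride for VLDL secretion. Its level was 390, 188 and 123 CPM in sgCtrl livers 5.1, 7.1 and 7.2, and 389, 229 and 323 CPM in sgPrdx2 livers 1.1, 1.3 and 3.2. Liver 5.1 was as high as the highest sgPrdx2 liver, and the change of 0.43 ± 0.40 (SE, log2 scale) was close to its error (adjusted p = 0.537). It was 1.01 without sgCtrl 5.1 and 0.12 without sgCtrl 7.2. *Ces1g* encodes a lipid hydrolase linked to hepatic triglyceride content and cholesteryl ester hydrolysis. It was at 417, 289 and 155 CPM in sgCtrl livers and at 482, 324 and 361 CPM in sgPrdx2 livers, with overlap and an adjusted p of 0.448 (log2 fold change 0.44 ± 0.34). Its log2 fold change was 0.81 without sgCtrl 5.1 and 0.14 without sgCtrl 7.2. Neither gene was called in any fit that left out a liver, but most of these fits could not tell. Those without sgCtrl 5.1, sgCtrl 7.2, sgPrdx2 1.1 or sgPrdx2 1.3 called no gene at all. *Ces1d* and *Ces1g* moved together from liver to liver (Pearson r of 0.96 over the 6 livers, given as a description), and the counts of *Ces1d* were 64.8 to 93.5 per 100 of *Ces1g* in sgCtrl livers and 70.6 to 89.7 in sgPrdx2 livers.

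*Ces1f*, which has been linked to the lipid loading of VLDL, was at 109, 119 and 51.1 CPM in sgCtrl livers 5.1, 7.1 and 7.2 and at 215, 124 and 99.9 CPM in sgPrdx2 livers 1.1, 1.3 and 3.2. The groups overlapped (log2 fold change 0.65 ± 0.37, adjusted p = 0.316). The value was 0.26 without sgPrdx2 1.1 and 0.36 without sgCtrl 7.2. *Ces1e* encodes egasyn, which holds beta-glucuronidase in the endoplasmic reticulum. It was at 52.0, 54.9 and 24.8 CPM in sgCtrl livers and at 126, 76.4 and 76.4 CPM in sgPrdx2 livers, without overlap, and had the highest log2 fold change of the Ces1 members (1.08 ± 0.33, adjusted p = 0.102). No Ces1 member was called by edgeR, 3 of 6 had an unadjusted p under 0.05, and DESeq2 called the same number. Summed over the 6 Ces1 members, the level went from 2347 ± 601 to 3727 ± 606 CPM (SD, n = 3 each), a ratio of 1.59.

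The Ces2 members had fold changes of opposite sign. *Ces2a*, an acylglycerol hydrolase, was at 18.0, 22.8 and 12.2 CPM in sgCtrl livers 5.1, 7.1 and 7.2 and at 67.1, 47.7 and 110.4 CPM in sgPrdx2 livers 1.1, 1.3 and 3.2. The lowest sgPrdx2 liver was above the highest sgCtrl liver, and the log2 fold change was 2.09 ± 0.34 (SE) with an adjusted p of 0.0366 by edgeR. *Ces2c*, a hydrolase of triglycerides and diglycerides, was at 23.4, 17.1 and 11.8 CPM in sgCtrl livers and at 11.9, 12.2 and 14.04 CPM in sgPrdx2 livers. The sgPrdx2 livers lay in the lower part of the sgCtrl range, and the log2 fold change of -0.46 ± 0.24 was not past the test (adjusted p = 0.268) and was -0.19 without sgCtrl 5.1.

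Set against each other in the same liver, which no normalization can alter, the counts of *Ces2a* per 100 *Ces2c* counts were 76.8, 134 and 103 in sgCtrl livers 5.1, 7.1 and 7.2 and 566, 393 and 787 in sgPrdx2 livers 1.1, 1.3 and 3.2. The pair was chosen after its values were seen. The groups did not overlap, and the exact two-sided permutation p of 0.1 is the smallest that 3 livers against 3 can give. The call of *Ces2a* was not kept in every fit that left out a liver. Its adjusted p was 0.119 without sgCtrl 5.1, 0.143 without sgCtrl 7.2, 0.142 without sgPrdx2 1.1 and 0.0672 without sgPrdx2 1.3, fits in which no gene at all was called, with log2 fold changes between 1.88 and 2.35. The call was kept without sgCtrl 7.1 (log2 fold change 2.31, adjusted p = 0.0403) and without sgPrdx2 3.2 (1.71, adjusted p = 0.0377).

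Near-identical copies bear on both genes. Of the 50-base stretches of *Ces2a* exons, 16.3% also occur in the gene model Gm7208, which had 27, 62 and 33 counts in sgCtrl livers and 119, 110 and 170 counts in sgPrdx2 livers. Those numbers are small beside the 643 to 3595 counts of *Ces2a*. For *Ces2c*, 32.7% of stretches occur in the pseudogene *Ces2d-ps*, which had no more than 4 counts in any liver, and 16.1% in the pseudogene Gm8798, which had 37 to 107 counts against 457 to 1026 of *Ces2c*. How the authors' counting treated reads that match several places is not given in the sources used here.

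The Ces3 members were both higher in sgPrdx2 livers without overlap. *Ces3a*, the second most abundant member per length, was at 673, 1279 and 951 CPM in sgCtrl livers 5.1, 7.1 and 7.2 and at 1815, 1685 and 2818 CPM in sgPrdx2 livers 1.1, 1.3 and 3.2. The log2 fold change was 1.12 ± 0.29 (SE), with an adjusted p of 0.0718. *Ces3b* had the highest fold change of the 10 members and, within sgCtrl livers, the widest spread among them. It was at 5.46, 37.4 and 6.85 CPM in sgCtrl livers and at 67.8, 85.6 and 130.1 CPM in sgPrdx2 livers. Liver 7.1 stood far above the other sgCtrl livers (highest over lowest 6.85-fold within sgCtrl and 1.92-fold within sgPrdx2). The log2 fold change was 2.51 ± 0.71 with an adjusted p of 0.0881, and 3.94 with an adjusted p of 0.0263 without sgCtrl 7.1.

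*Ces3a* and *Ces3b* share 26.2% of the 50-base stretches of *Ces3b* exons. The counts of *Ces3b* per 100 *Ces3a* counts were not constant, at 0.811, 2.92 and 0.720 in sgCtrl livers 5.1, 7.1 and 7.2 and 3.74, 5.08 and 4.62 in sgPrdx2 livers 1.1, 1.3 and 3.2. The proportion was higher in all sgPrdx2 livers (exact two-sided permutation p = 0.1, the smallest possible). Summed, the Ces3 members went from 984 ± 320 to 2200 ± 650 CPM (SD, n = 3 each), a ratio of 2.24.

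Because hepatocyte RNAs as a whole were higher in sgPrdx2 livers, each member was also set against the mean log2 level of the 29 hepatocyte markers in the same liver. Relative to these markers *Ces2a* stood at -5.72, -5.74 and -6.71 in sgCtrl livers 5.1, 7.1 and 7.2 and at -4.88, -5.39 and -4.40 in sgPrdx2 livers 1.1, 1.3 and 3.2, a difference of 1.16. *Ces3b* stood at -7.35, -5.04 and -7.50 in sgCtrl livers and at -4.87, -4.56 and -4.17 in sgPrdx2 livers, a difference of 2.10. *Ces2c* stood at -5.35, -6.14 and -6.75 in sgCtrl livers and at -7.34, -7.32 and -7.34 in sgPrdx2 livers, a difference of -1.25. These 3 members did not overlap between groups (exact two-sided permutation p = 0.1 for each, the smallest possible). On this scale 0.329% of all genes lay above in every sgPrdx2 liver, as *Ces2a* and *Ces3b* did, and 83.4% lay below, as *Ces2c* did. Most genes lie below because the subtracted markers were themselves higher in sgPrdx2 livers. These shares cover genes of all cell types, and the share among hepatocyte genes was not computed. The relative values rest on the same CPM as the fold changes above. The other 7 members overlapped, with differences from -0.33 (*Ces1g*) to 0.28 (*Ces3a*).

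In the edgeR fit with libraries scaled to the hepatocyte markers, *Ces2a* (log2 fold change 1.18 ± 0.30, adjusted p = 0.00495) and *Ces3b* (1.69 ± 0.51, adjusted p = 0.0107) were called higher, as were 0.299% of all genes. Both changes were smaller than under TMM (2.09 and 2.51). The adjustment is looser where most genes are called, so adjusted p values cannot be compared between the scalings. *Ces2c* was called lower (-1.38 ± 0.31, adjusted p = 0.00279), but so were 69.5% of all genes, whose median was -0.88. *Ces3a* (0.27) and *Ces1e* (0.20) kept a positive sign, and *Ces1b* (-0.15), *Ces1c* (-0.17), *Ces1f* (-0.22), *Ces1g* (-0.49) and *Ces1d* (-0.53) turned negative, none of these 7 past the test. The sign of these 5 Ces1 members therefore depended on the scaling. It was positive relative to the typical gene, where edgeR called none of them, and negative relative to hepatocyte markers. With libraries scaled to 6 housekeeping genes the values were 0.37 (*Ces1b*), 0.33 (*Ces1c*), 0.30 (*Ces1f*), 0.05 (*Ces1g*) and 0.03 (*Ces1d*). The housekeeping genes were *Atp5b*, *Bag6*, *Cox8a*, *Hint1*, *Hnrnpa2b1* and *Ndufa2*, the set the study used for its prognostic signature. The median of all genes was -0.38 on that scale, so this reference was also higher in sgPrdx2 livers than the typical gene.

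**Figure D2:**
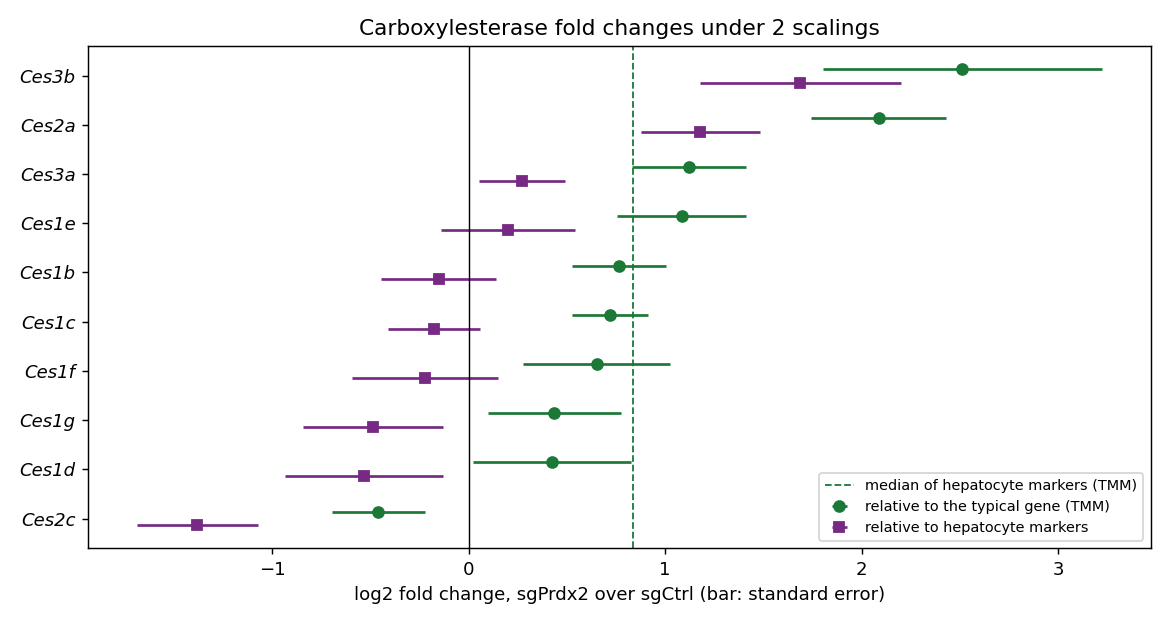
Log2 fold change (sgPrdx2 over sgCtrl, x axis) with its standard error for each member in the edgeR fit with TMM normalization (green circles) and in the fit scaled to 29 hepatocyte markers (purple squares). The dashed line is the median change of the hepatocyte markers under TMM (0.83), and only Ces2a and Ces3b stay clearly to the right of 0 on the hepatocyte scale while Ces2c is the farthest to the left.

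Levels were compared between genes as CPM per kilobase of exon. In sgCtrl livers the order was *Ces1c* (693 ± 116, SD), *Ces3a* (368 ± 116), *Ces1g* (120.3 ± 54.9), *Ces1d* (98.6 ± 58.9), *Ces1b* (39.7 ± 12.2), *Ces1f* (28.4 ± 11.2), *Ces1e* (20.1 ± 7.57), *Ces2c* (7.59 ± 2.53), *Ces2a* (7.50 ± 2.25) and *Ces3b* (6.46 ± 7.04), each over 3 livers. Neighbors in this order overlapped in their ranges except at 3 steps, from *Ces1c* to *Ces3a*, from *Ces3a* to *Ces1g* and from *Ces1e* to *Ces2c*. In sgPrdx2 livers *Ces3a* (802 ± 236) reached into the range of *Ces1c* (1142 ± 172), *Ces3b* (36.8 ± 12.5) and *Ces2a* (31.8 ± 13.6) overlapped with *Ces1e* (42.5 ± 13.1), and *Ces2c* was alone at the bottom (5.52 ± 0.516).

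As a share of the family's RNA per length, *Ces1c* and *Ces3a* together made up most of it in every liver. *Ces1c* held 49.99% ± 3.86 in sgCtrl and 46.4% ± 2.52 in sgPrdx2 livers, and *Ces3a* 27.0% ± 8.99 and 32.3% ± 5.30 (SD, n = 3), with overlap for both. Liver 5.1 of sgCtrl departed from this make-up, with 16.7% of *Ces3a*, 10.7% of *Ces1d* and 11.4% of *Ces1g*. The shares of 3 members separated the groups, and for this measure there is no share over all genes to set beside that count. A share also moves with the other members. The summed CPM of the family rose 1.79-fold, while the CPM of *Ces2c* itself overlapped between the groups. *Ces2a* held 0.460% to 0.643% in the sgCtrl group and 1.01% to 1.64% in the sgPrdx2 group, *Ces3b* 0.138% to 0.969% and 1.04% to 1.78%, and *Ces2c* 0.456% to 0.663% and 0.202% to 0.264% (exact two-sided permutation p = 0.1 for each).

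**Figure D3:**
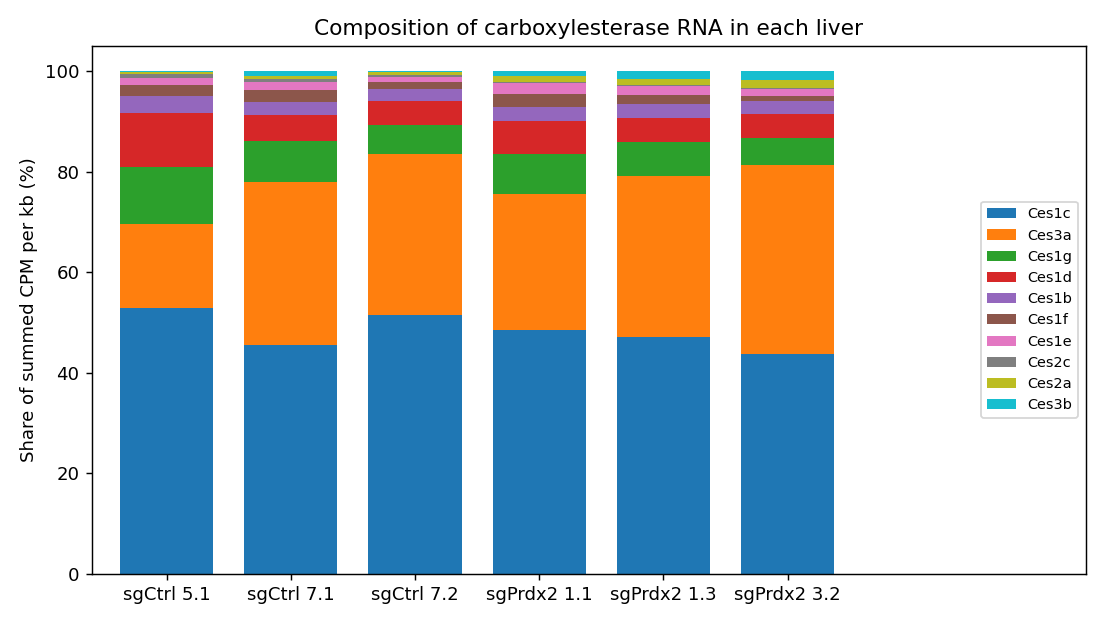
Share of each member (y axis, percent of summed CPM per kilobase of exon) in the carboxylesterase RNA of each liver, stacked to 100%. Ces1c and Ces3a fill most of each bar, sgCtrl liver 5.1 has the smallest Ces3a share (16.7%), and the bands of Ces2a and Ces3b at the top are wider in the 3 sgPrdx2 livers.

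Within groups the members did not vary as 1 block. Liver 5.1 was the highest sgCtrl liver for *Ces1b*, *Ces1c*, *Ces1d*, *Ces1g* and *Ces2c* and the lowest for *Ces3a* and *Ces3b*, and liver 7.2 was the lowest for all 6 Ces1 members and both Ces2 members. Over the 6 livers, which include the group difference, Pearson r of log2 CPM was 0.70 to 0.98 among the Ces1 members, 0.91 to 0.95 among *Ces2a*, *Ces3a* and *Ces3b*, and -0.57 to 0.37 between *Ces2c* and the other members. The 5 genes outside the family most like the mean of the members' scaled log2 CPM, among the 9255 tested genes whose mean level reached 10 CPM, were *Supt7l* (r = 0.994), *Npr2* (0.989), *Abhd15* (0.988), *Acsm5* (0.987) and *Mfsd4b1* (0.986), and none of them was called. Log2 fold changes of these 5 genes ran from 0.12 (*Supt7l*) to 0.89 (*Mfsd4b1*). All these r values are over 6 livers and describe likeness of pattern, not of size, in these libraries.

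The other 10 carboxylesterase genes gave no call by edgeR with TMM or by DESeq2, and 1 of the 6 tested (*Ces2h*) had an unadjusted p under 0.05. *Ces2e*, an abundant intestinal and hepatic member, was at 160 ± 43.0 CPM in sgCtrl and 220 ± 29.2 CPM in sgPrdx2 livers (log2 fold change 0.46 ± 0.21, adjusted p = 0.223). *Ces2g* was at 85.3 ± 11.1 and 90.3 ± 13.1 CPM (0.08 ± 0.16, adjusted p = 0.778). *Ces2h*, at 1.16 ± 0.304 and 2.00 ± 0.385 CPM, was higher in every sgPrdx2 liver (0.78 ± 0.27, adjusted p = 0.133). *Ces4a* had 16, 5 and 1514 counts in sgCtrl livers 5.1, 7.1 and 7.2 and 9, 27 and 88 counts in sgPrdx2 livers 1.1, 1.3 and 3.2, so that 1 library set its log2 fold change of -3.18 ± 1.75. Without liver 7.2 the value was 2.20, with no call in either fit. Scaled to hepatocyte markers, *Ces2g* (-0.79, adjusted p = 0.0137) and *Ces4a* (-3.92, adjusted p = 0.0165) were among the 69.5% of genes called lower. The remaining 6 (*Ces1a*, *Ces1h*, *Ces2b*, *Ces2d-ps*, *Ces2f* and *Ces5a*) were under 1 CPM in all livers, and *Ces5a* had 0 counts throughout.

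The genes beside the clusters gave no call by edgeR. Over all genes, 13.0% were higher and 11.9% lower at an unadjusted p under 0.05, and DESeq2 called 7.58% higher and 5.78% lower. Of 12 tested neighbors of the Ces1 cluster none was called (median log2 fold change 0.00), 2 had a lower level at an unadjusted p under 0.05, and DESeq2 called none. *Lpcat2*, a lysophospholipid acyltransferase gene, was at -0.37 ± 0.12 (adjusted p = 0.106) and the matrix protease gene *Mmp2* at -0.30 ± 0.13 (adjusted p = 0.196), followed by the pseudogene Gm45727 inside the cluster (0.74 ± 0.69, adjusted p = 0.530). Of 12 neighbors of the Ces2 to Ces4 cluster none was called by edgeR (median 0.06), 4 were higher and 2 lower at an unadjusted p under 0.05, and DESeq2 called 1 higher. The smallest p belonged to *Pdp2*, a pyruvate dehydrogenase phosphatase gene, at 0.49 ± 0.14 (adjusted p = 0.0871), followed by *Cbfb* (-0.46 ± 0.15, adjusted p = 0.121) and *Car7* (0.63 ± 0.21, adjusted p = 0.124).

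**Figure D4:**
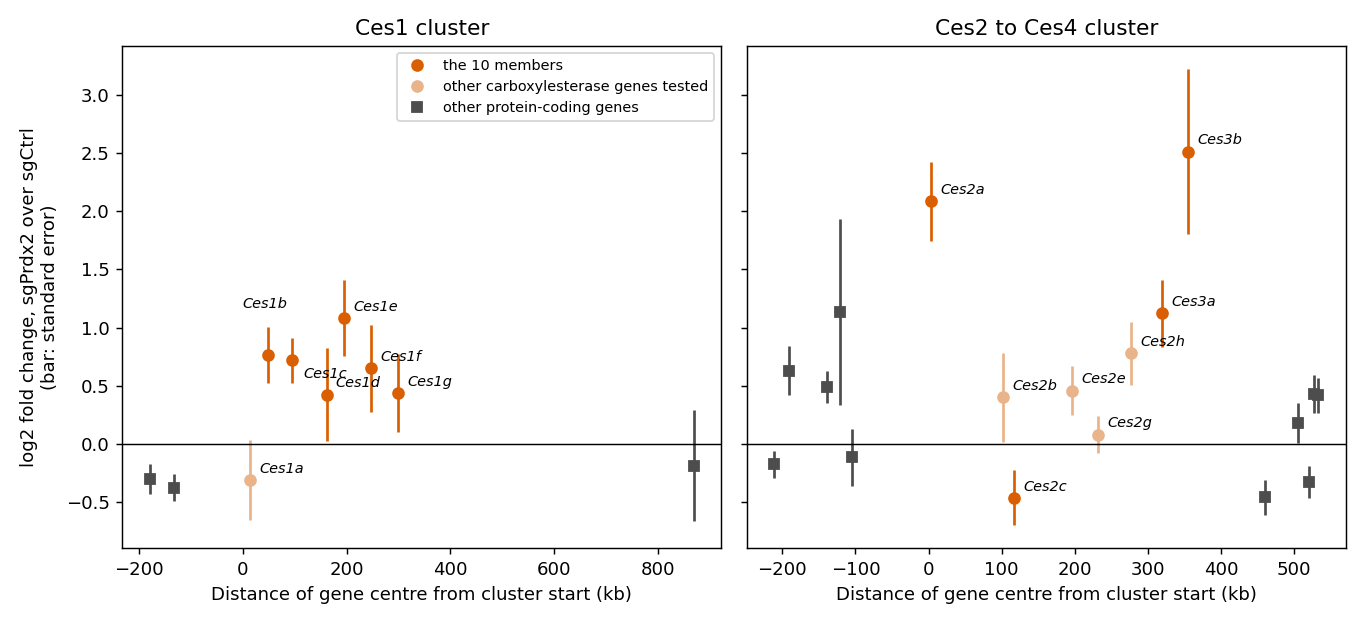
Log2 fold change with its standard error (y axis) against the distance of the gene's centre from the start of its cluster (x axis, kb), for tested genes of the Ces1 cluster (left) and the Ces2 to Ces4 cluster (right). Orange points are the 10 members, pale points other carboxylesterase genes (Ces4a, at -3.18, is left out), and gray squares other protein-coding genes nearby, none of which was called by edgeR; Ces2a and Ces2c lie in the same cluster on opposite sides of 0.

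Other genes of the same pathways were counted by edgeR and by DESeq2. For these and the later lists, the shares over all genes were 1.79% higher and 1.54% lower by edgeR. They were 7.58% and 5.78% by DESeq2, and 13.0% and 11.9% at an unadjusted p under 0.05 by edgeR. Of 18 neutral lipid hydrolases and their cofactors, edgeR called 1 higher and 0 lower (median log2 fold change 0.16), DESeq2 called 3 higher and 0 lower, and 4 were higher and 1 lower at an unadjusted p under 0.05. *Lipe*, which encodes hormone-sensitive lipase, went from 17.5 ± 1.18 to 28.4 ± 3.99 CPM (log2 fold change 0.70 ± 0.14, adjusted p = 0.0459). Of 15 other esterases and hydrolases of xenobiotics, edgeR called 2 higher and 0 lower (median 0.25), DESeq2 called 5 higher and 0 lower, and 6 were higher and 0 lower at an unadjusted p under 0.05. *Bphl*, a hydrolase that activates valacyclovir, went from 89.3 ± 8.94 to 176 ± 26.7 CPM (0.98 ± 0.16, adjusted p = 0.0366), and *Afmid*, a formamidase of tryptophan breakdown, from 6.44 ± 0.525 to 13.2 ± 2.51 CPM (1.03 ± 0.18, adjusted p = 0.0386).

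Of 16 genes of VLDL assembly, the pathway that several carboxylesterases feed, edgeR called 1 higher and 0 lower (median 0.32), DESeq2 called 5 higher and 1 lower, and 8 were higher and 1 lower at an unadjusted p under 0.05. The gene called by edgeR was *Apoc3*, an inhibitor of lipoprotein lipase carried on VLDL, which went from 549 ± 167 to 1457 ± 338 CPM (log2 fold change 1.41 ± 0.26, adjusted p = 0.0409). Of 16 regulators of hepatic carboxylesterases none was called by edgeR (median 0.34), while 7 were higher at an unadjusted p under 0.05 and DESeq2 called 4 higher. The smallest p values belonged to *Nr1h4*, the bile acid receptor FXR (0.59 ± 0.15, adjusted p = 0.0668), *Cebpa*, the C/EBP alpha gene (0.67 ± 0.18, adjusted p = 0.0772), and *Rxra*, the shared partner of many nuclear receptors (0.47 ± 0.14, adjusted p = 0.0984).

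Markers of other liver cells were mostly lower in sgPrdx2 livers. Summed CPM of 16 macrophage markers ran from 6489 to 7698 in the sgCtrl group and from 4617 to 5683 in the sgPrdx2 group, with *Gpnmb* (-1.08 ± 0.18, adjusted p = 0.0373) and *Mpeg1* (-0.82 ± 0.14, adjusted p = 0.0394) called lower. Sums were 2378 to 2728 and 1757 to 1811 CPM for 12 stellate and fibroblast markers, with no call by edgeR, 7 lower at an unadjusted p under 0.05 and 4 lower by DESeq2, the smallest p values being those of *Acta2* (-1.49 ± 0.35, adjusted p = 0.0584), *Col1a2* (-0.67 ± 0.16, adjusted p = 0.0612) and *Tagln* (-0.77 ± 0.22, adjusted p = 0.0912). They were 407 to 426 and 305 to 375 CPM for 10 endothelial markers (*Pecam1* called lower, -0.77), 1722 to 1948 and 1289 to 1474 CPM for 10 cholangiocyte markers (*Cldn4*, -0.83, and *Prom1*, -0.76, called lower), and 91.4 to 107 and 52.2 to 75.9 CPM for 10 lymphocyte markers (*Cd8a* called lower, -0.84). No marker of these lists was under 1 CPM in all livers. Their part in the carboxylesterase differences was not tested.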

How the data were processed

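RNA of 6 livers was sequenced, 3 per group, with groups taken from the sample labels. The authors deposited counts of reads per gene, as whole numbers without normalization. The submitters' processing notes name HISAT2, HTSeq, DESeq2 and GRCm38, and the annotation, strandedness and treatment of multiply mapped reads are not given in the sources used here. The authors' second table holds their own comparison (mean level, fold change, test and p-value per gene) and was not used.

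Counts were analysed with edgeR 4.0.16 in R 4.3.3 (filterByExpr with a minimum count of 10, TMM, quasi-likelihood test of sgPrdx2 against sgCtrl without covariates), with Benjamini-Hochberg adjustment over 17032 genes and calls at an adjusted p under 0.05. The biological coefficient of variation was 0.213. SE was computed as the absolute log2 fold change over the root of F. A pseudocount of 0.5 CPM was used for log2 levels, hence in values relative to hepatocyte markers and in r. Single values were compared by two-sided exact permutation tests. Intervals of counting error are not given, since they leave out the spread between mice, which the SD and the values of each liver show. Every pair of livers differed beyond sampling noise (chi-square per degree of freedom of at least 34.8). The fits were also run on simulated counts. These were drawn without a difference in composition between the groups, so that they cannot test the normalization.

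The members and gene lists were chosen with earlier results of these data known. All members were named, other carboxylesterase genes by value or count, called genes of each other list (at most 5, smallest p first, otherwise the 3 with the smallest p), and the 5 genes most like the members. Gene positions, exon lengths and shared 50-base stretches come from GENCODE M21 (GRCm38), which need not be the annotation the authors used. Also run were normalization by RLE or by upper quartiles, libraries scaled to 6 housekeeping genes or to hepatocyte markers, DESeq2 1.42.0, other filters and thresholds, library totals, longest transcripts as gene lengths, and leaving out each liver in turn.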

Additional observations from a re-analysis of the deposited data

How the results depend on the processing

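With 1 member called higher by the edgeR test, 2 were called with libraries scaled to hepatocyte markers, 6 with DESeq2, 4 without a filter on low counts, 4 at an adjusted p under 0.10, and 0 to 2 when livers were left out in turn. Leaving out sgCtrl 5.1, sgCtrl 7.2, sgPrdx2 1.1 or sgPrdx2 1.3 left no call among all genes. Among members called lower, the count of 0 became 1 (*Ces2c*) with scaling to hepatocyte markers. Over all genes, calls higher and lower were 305 and 262, against 644 and 484 without a filter, 1162 and 886 with DESeq2, 70 and 919 with scaling to 6 housekeeping genes (median log2 fold change -0.38) and 51 and 11836 with scaling to hepatocyte markers (median -0.88). That last scaling turned the sign of *Ces1b* (-0.15), *Ces1c* (-0.17), *Ces1d* (-0.53), *Ces1f* (-0.22), *Ces1g* (-0.49), *Ces2e* (-0.39), *Ces2g* (-0.79) and *Ces2h* (-0.058). *Ces2g* was also negative with housekeeping scaling (-0.28), without sgCtrl 7.2 (-0.02) and without sgPrdx2 1.1 (-0.044), and ranged up to 0.16 with other livers left out. *Ces4a* was positive (2.20) without sgCtrl 7.2 and as low as -4.75 without sgPrdx2 3.2. The log2 ratio of the members' summed CPM was 0.84, and 0.45 with library totals. The sign of *Ces2a*, *Ces3a*, *Ces3b*, *Ces1e* and *Ces2c* was kept in all 13 other settings. No paired analysis was possible because the groups share no mouse numbers. Depth was not a limit for the members, the lowest of which had 239 counts in a liver.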
